A study of Mus musculus with 60 samples.

Results

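Integrins are the cell-surface receptors through which cells hold on to their matrix, and laminins are the chains of the main adhesive protein of basement membranes. All integrin alpha, integrin beta and laminin alpha, beta and gamma genes were followed here by their symbols (Itga, Itgb, Lama, Lamb or Lamc followed by a number or letter), with no use of their measured values. The rule found 37 genes, of which 36 are reported here, 26 integrin subunits (18 alpha and 8 beta) and 10 laminin chains. All were present among the 19355 symbols of the cell table and among the 17473 symbols of the liver table.

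By the labels the cells came from wild-type C57BL/6 mice, which the study's methods give as C57BL/6J, 8 to 10 weeks old. Hepatocytes freshly isolated by perfusion were compared with IL6-iHPCs, proliferating cells grown from such hepatocytes in a medium with EGF, HGF, dexamethasone and 30 ng/ml IL6, at day 3 and day 14 of the first culture (IL6-iHPCs-D3 and IL6-iHPCs-D14, both P0). Passaged IL6-iHPCs were sampled as the mouse-1 line at passage 10 and passage 35, the mouse-2 line at passage 10 and the clone-1 line, by its name and the study's methods the progeny of 1 cell, at passage 20. The labels give clone-1 as wild type, whereas the study describes clones of that number from tdTomato-marked hepatocytes of Albumin-Cre and R26R tdTomato mice, and whether this is the same clone is not given in the sources used here. The hepatocytes were seeded on gelatin from the start, and at day 14 the cells were replated on gelatin again. By the labels, IL6-iMHs were made from each of these 4 lines by 7 days in a maturation medium with dexamethasone and oncostatin M. Livers of wild-type C57BL/6 mice, by the methods C57BL/6J of the same age, were taken without surgery (Normal liver) or after removal of 2/3 of the liver (partial hepatectomy, PHX), either early, at 6 h and 24 h, or later, at days 3, 7 and 14. Each group had 3 samples, 33 in the 11 groups of cells and 18 in the 6 groups of liver. The study's legend calls the samples of the cell groups technical repeats, so the SDs, SEs and p-values below measure the spread between these samples, which may be technical only. The mouse-1 line entered at both passages, so the 4 lines came from fewer sources than 4.

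An integrin is a pair of 1 alpha and 1 beta subunit. The beta 1 subunit pairs with many alpha subunits, among them alpha 3, alpha 6 and alpha 7 for laminin, alpha 1, alpha 2, alpha 10 and alpha 11 for collagen, and alpha 5 for fibronectin, while beta 4 pairs only with alpha 6 and ties laminin to keratin filaments in hemidesmosomes. A laminin is a trimer of 1 alpha, 1 beta and 1 gamma chain, and the alpha 3 and beta 3 chains belong to the laminin of hemidesmosomes. Hepatocytes in the liver face a sinusoid with no continuous basement membrane, whereas bile duct cells rest on a laminin-rich one. Beta 2 integrins and alpha L, alpha M, alpha X, alpha D and alpha E are receptors of white blood cells, and alpha IIb is the platelet receptor for fibrinogen.

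Promoter sequence is shown for 4 members that the comparisons below turn on, Lama5 and Itga3, Lamb2, and Lamb3. RefSeq promoters of GRCm38.p6 were matched for 23 of the 36 members, with 26 promoters, and each sequence is printed 5′ to 3′ on the gene's strand, from 250 bases before the start to the base before the nearest annotated exon. Capitals mark matches to GGGCGG (the GC box) or TTCNNNGAA (the STAT motif) on either strand.
Lama5, chr2:180225860-180226109, minus strand: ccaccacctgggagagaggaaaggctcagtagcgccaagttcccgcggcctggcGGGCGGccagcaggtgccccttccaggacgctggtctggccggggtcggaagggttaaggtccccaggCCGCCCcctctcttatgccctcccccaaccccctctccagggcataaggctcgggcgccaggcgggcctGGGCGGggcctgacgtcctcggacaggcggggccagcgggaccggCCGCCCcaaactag
Itga3, chr11:95076802-95076964, minus strand: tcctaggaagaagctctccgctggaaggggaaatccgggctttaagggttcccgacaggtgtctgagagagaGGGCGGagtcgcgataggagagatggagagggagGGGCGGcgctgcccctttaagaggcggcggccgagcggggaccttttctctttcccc
Lamb2, chr9:108479612-108479735, plus strand: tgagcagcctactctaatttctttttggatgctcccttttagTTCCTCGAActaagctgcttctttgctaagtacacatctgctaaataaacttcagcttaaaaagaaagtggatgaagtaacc
Lamb3, chr1:193301744-193301992, plus strand: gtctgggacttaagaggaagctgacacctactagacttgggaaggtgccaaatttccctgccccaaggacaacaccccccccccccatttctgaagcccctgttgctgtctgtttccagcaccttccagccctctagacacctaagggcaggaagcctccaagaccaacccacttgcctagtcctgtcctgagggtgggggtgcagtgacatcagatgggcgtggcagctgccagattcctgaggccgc
The GC box was found in 9 of the 26 member promoters and in 32.7% of all 32851 mouse promoters of the same length, with 4 matches in Lama5. TTCNNNGAA was found in 2 of 26, those of Itga10 and Lamb2, against 7.02% of all promoters, and TGANTCA (AP-1), searched in the same way, in 1 of 26, that of Itgax, against 6.75%. The motifs were searched one by one, so matches to different motifs may share letters, and the printed Lamb3 stretch held none of the 3. Itga2 and Itga1 are neighbours in GRCm38, 21.0 kb apart on chromosome 13. Other genes described below are Itga6 at chr2:71745616-71858416 and Itgav at chr2:83724397-83806916, both on the plus strand of mm10, as are Itgb4 at chr11:115974709-116008412 and Itgb1 at chr8:128685654-128733200.

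Reads recovered from the deposited FPKM values totalled 49299093 to 88877761 per cell sample and 52073586 to 79266297 per liver sample. The 6 hepatocyte markers summed to 73602 to 79470 FPKM in Hepatocytes, 590 to 708 in IL6-iHPCs-D3, and 59278 to 80459 in the IL6-iMHs. Hepatocytes also held red blood cell markers (107 to 122 FPKM in sum) and lymphocyte markers (8.10 to 8.80), which summed to at most 1.03 and 0.147 FPKM in any cultured sample. The 4 Y-linked genes summed to 5.46 to 7.21 FPKM in Hepatocytes, 53.4 to 81.4 in the P0 cultures and 33.9 to 38.7 in the clone-1 IL6-iHPCs, and were at 0 in the clone-1 IL6-iMHs and at most 0.0157 in all other passaged groups. The library group labelled clone-1 IL6-iMHs thus goes against a single clone, so the main counts and named values of the IL6-iMH averages are given with and without that line. Hepatocytes and the P0 cultures did not overlap in the Y-linked genes. The source animal and the culture thus cannot be told apart where these groups are compared below. In liver, PHX-D3 replicate 2 stood apart from the other samples of its group, and the tested values of that group are given with and without it. All liver groups shared 1 estimate of the spread of each gene, so that sample also entered the SEs and p-values of the other times.

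Few members were abundant before culture. In Hepatocytes the alpha subunits summed to 12.8 ± 1.0 FPKM (SD, n = 3), of which Itga5 made up 39.7%, and the sum was 130 in IL6-iHPCs-D3, 168 in IL6-iHPCs-D14, 98.6 to 209 in passaged IL6-iHPCs and 41.2 to 127 in IL6-iMHs. Among the cells, 14 of the 36 members reached a group mean of 10 FPKM somewhere (9 integrins and 5 laminins), 15 stayed under 1 FPKM in every group, and the 5 that were at or above 1 FPKM in every group were all integrins. Among the livers, 4 members reached 10 FPKM and 15 stayed under 1 FPKM throughout.

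**Figure D1:**
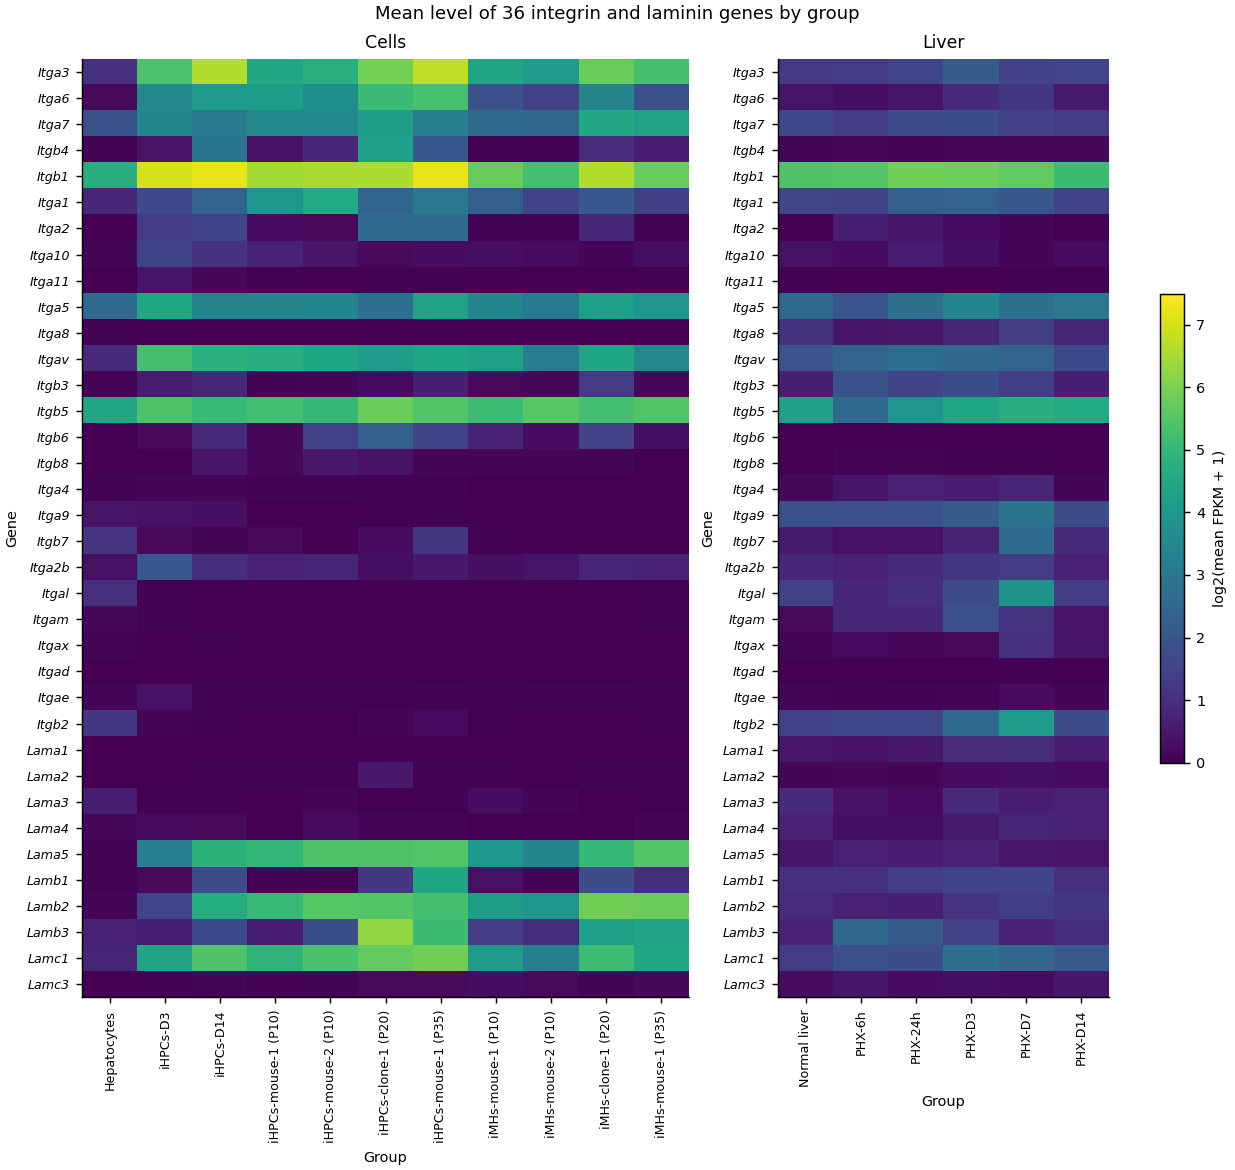
Colour gives log2(mean FPKM + 1) of each of the 36 genes (rows, ordered by role) in each of the 11 cell groups (left) and 6 liver groups (right), 3 samples a group. In the cells, Itgb1, Itga3, Itgav, Itgb5, Lama5, Lamb2 and Lamc1 form the bright rows of the cultured groups, and of these only Itgb1 and Itgb5 are bright in Hepatocytes and in liver.

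Differences were tested with limma on log2(FPKM + 1), and a gene was called where the adjusted p was under 0.05 and the change was 2-fold or more. Of the 36 members, 21 passed the filter of 1 FPKM in 3 samples in the cell table (16 integrins and 5 laminins) and 22 in the liver table (16 integrins and 6 laminins). A member that passed only through the group where it is high had to differ, so the counts below describe the tested members and support nothing about the family. Fold changes are on the log2(FPKM + 1) scale, which understates changes of low genes.

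Among the receptor subunits for laminin, alpha 3 and alpha 6 differed widely between Hepatocytes and cultures. Itga3, the alpha 3 subunit, stood at 1.13, 1.15 and 0.969 FPKM in Hepatocytes, 42.8, 37.2 and 41.8 in IL6-iHPCs-D3, and 104, 93.3 and 101 in IL6-iHPCs-D14. It rose by 4.32 ± 0.09 (log2, SE, adjusted p = 6.9e-27) from Hepatocytes to day 3 and by a further 1.27 ± 0.09 (adjusted p = 5.65e-13) to day 14. No sample of a later stage overlapped with the one before. In the passaged lines its level depended on the line, with 19.0 to 23.2 FPKM in mouse-1 at P10, 24.5 to 27.3 in mouse-2 at P10, 58.3 to 61.0 in clone-1 at P20 and 106 to 113 in mouse-1 at P35.

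Itga6, the alpha 6 subunit, was close to absent from Hepatocytes at 0.160, 0.125 and 0.138 FPKM and stood at 10.2, 10.2 and 11.1 FPKM in IL6-iHPCs-D3 (log2 difference 3.33 ± 0.07, adjusted p = 3.34e-27). Day 14 samples held 15.9 to 17.5 FPKM, clone-1 28.9 to 36.1 and mouse-1 at P35 37.9 to 40.4. Itgb4, its beta 4 partner, followed another course. It was at 0.0215, 0.0273 and 0.0230 FPKM in Hepatocytes and still at 0.348, 0.211 and 0.383 at day 3, then at 7.25, 6.17 and 5.77 at day 14 (2.49 ± 0.06 above day 3, adjusted p = 3.81e-24). Among passaged IL6-iHPCs it ranged from 0.256 ± 0.066 FPKM in mouse-1 at P10 through 0.776 ± 0.049 in mouse-2 and 3.10 ± 0.07 in mouse-1 at P35 to 17.6 ± 0.6 in clone-1 (SD, n = 3), and these 4 ranges did not overlap. Itga7, the third alpha subunit for laminin, moved less, from 2.65 to 2.71 FPKM in Hepatocytes to 9.60 to 10.05 at day 3 (1.56 ± 0.08, adjusted p = 5.84e-18). Its difference between day 14 and Hepatocytes, 1.18 in the main test, was -0.19 after quantile normalization.

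Itgb1, the common beta subunit, was already the leading integrin of Hepatocytes at 24.4, 26.7 and 26.0 FPKM. It stood at 124, 135 and 124 FPKM at day 3 (2.27 ± 0.07, adjusted p = 1.38e-22), at 142, 145 and 158 at day 14, and between 77.2 and 153 in passaged IL6-iHPCs. Every cultured sample was above every Hepatocyte sample. Itgb5, the beta 5 subunit that pairs with alpha V, was next in abundance at 20.1 to 21.9 FPKM in Hepatocytes and 29.97 to 56.7 in the cultures, and was not called at day 3 or day 14.

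**Figure D2:**
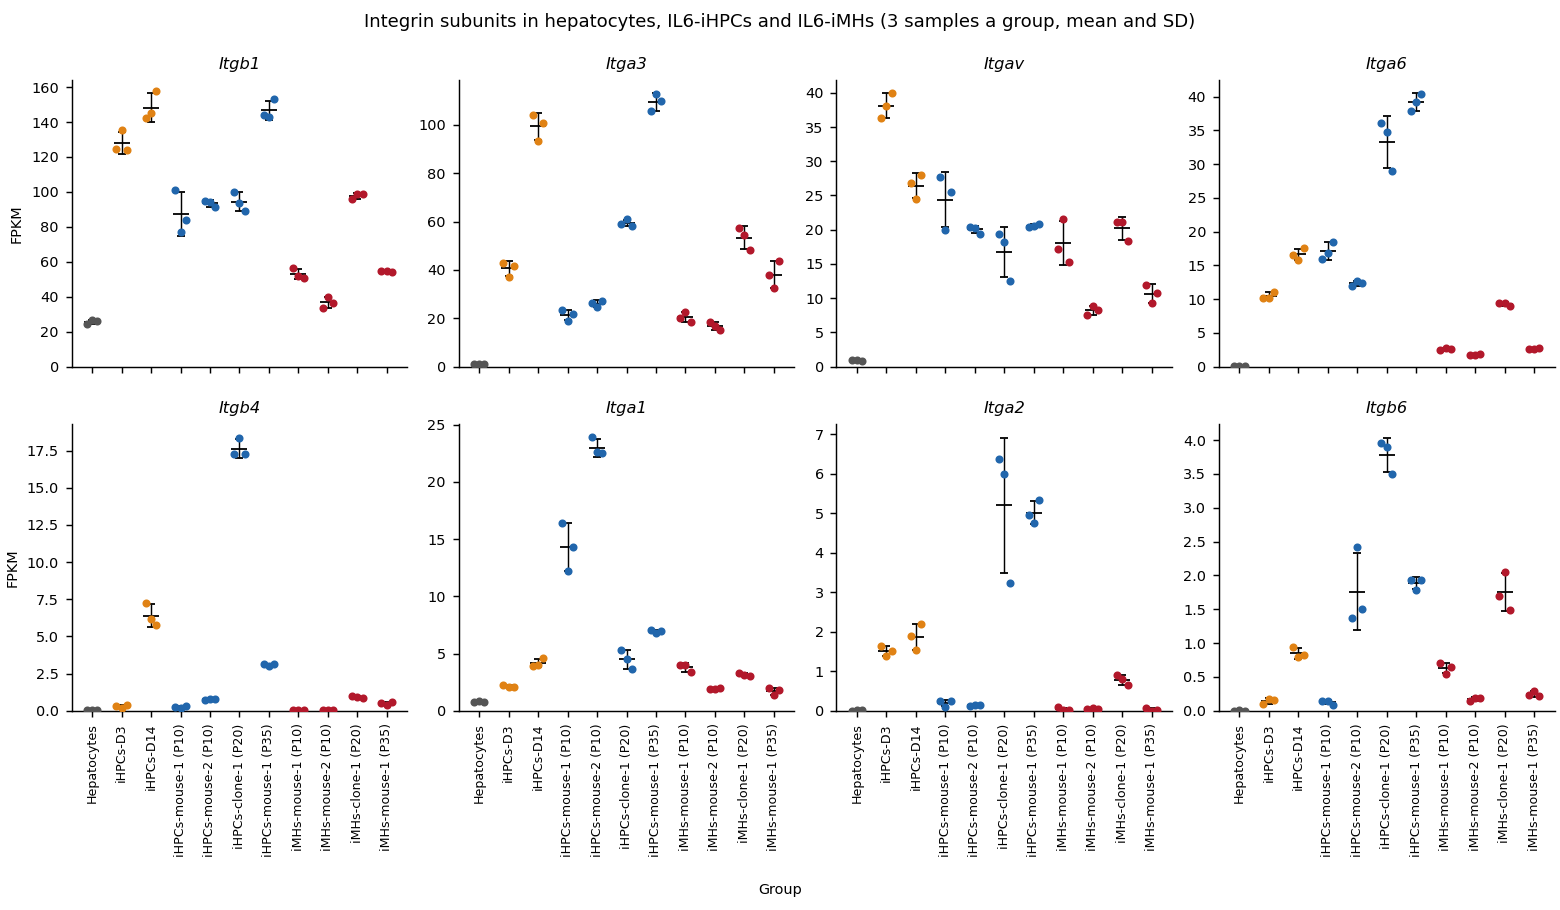
FPKM of 8 integrin subunits in the 11 cell groups, with 1 point per sample and bars for the mean and SD of 3 samples. Itgb1, Itga3, Itgav and Itga6 are higher in every culture group than in Hepatocytes, whereas Itgb4, Itga2 and Itgb6 differ between lines, each with its highest group mean in clone-1, where Itgb4 is at 17.6 FPKM.

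The collagen receptors differed between lines in opposite directions. Itga1, the alpha 1 subunit, stood at 0.768, 0.869 and 0.765 FPKM in Hepatocytes, 2.10 to 2.24 at day 3 and 3.93 to 4.58 at day 14, and was highest in mouse-2 at P10 with 22.5 to 23.9 FPKM and in mouse-1 at P10 with 12.2 to 16.4. Itga2, its neighbour on chromosome 13, was at 0, 0.0122 and 0.00841 FPKM in Hepatocytes and at 1.37 to 1.64 at day 3, was at no more than 0.250 FPKM in both P10 lines, and stood at 6.38, 5.99 and 3.23 in clone-1 and 4.95, 4.76 and 5.33 in mouse-1 at P35. The lines with the most Itga1 thus held the least Itga2, with no overlap between the P10 samples and the clone-1 and P35 samples for either gene. Itga10 peaked at day 3 with 1.73 to 2.03 FPKM (log2 difference 1.402 ± 0.057 from Hepatocytes) and passed the filter through the day 3 and day 14 samples alone, and Itga11 was at 0.353 FPKM at its highest group mean, at day 3.

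Among the receptors for fibronectin and other RGD-bearing ligands, Itgav, the alpha V subunit, differed most between Hepatocytes and day 3 on the log2(FPKM + 1) scale. It was at 0.907, 0.956 and 0.878 FPKM in Hepatocytes and at 36.4, 38.0 and 39.9 at day 3 (4.35 ± 0.12, adjusted p = 5.87e-24), with 24.4 to 28.0 at day 14 and 12.5 to 27.8 in passaged IL6-iHPCs. Itga5, the fibronectin receptor subunit, stood at 5.71, 5.61 and 3.99 FPKM in Hepatocytes, 20.9, 19.2 and 23.0 at day 3 and 9.65, 9.24 and 8.86 at day 14. It rose by 1.86 ± 0.10 (adjusted p = 5.37e-17) and then fell by 1.10 ± 0.10 on the log2 scale (adjusted p = 8.18e-11). Itgb6, the epithelial partner of alpha V, was at 0, 0.00541 and 0 FPKM in Hepatocytes, at no more than 0.938 FPKM at day 3 and day 14, and at 3.50 to 3.96 in clone-1, 1.78 to 1.94 in mouse-1 at P35, 1.37 to 2.41 in mouse-2 and 0.0881 to 0.145 in mouse-1 at P10. Itgb3 was at 1.39 to 1.62 FPKM in the clone-1 IL6-iMHs and at no more than 1.03 in any other cell sample, and the highest group means of Itga8 and Itgb8 were 0.0441 and 0.423 FPKM.

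Of the white blood cell integrins, Itgb2 and Itgal were highest in Hepatocytes. Itgb2 was at 1.401, 1.32 and 1.23 FPKM in Hepatocytes and at no more than 0.222 in any cultured sample, a log2 difference of -1.07 ± 0.04 at day 3. It reached 1 FPKM only in the 3 Hepatocyte samples, so the filter fixed the direction of its calls, and it was not tested with any 1 of them left out. Itgal, not tested because of its low level, stood at 1.16, 0.850 and 0.976 FPKM in Hepatocytes and at no more than 0.0462 in any culture sample. Beside them the lymphocyte markers summed to 8.10 to 8.80 FPKM and the neutrophil markers to 7.61 to 8.87 in Hepatocytes, and lymphocyte markers to at most 0.147 at day 3 and day 14. The Kupffer cell and macrophage markers summed to 18.9 to 22.0 FPKM in Hepatocytes, 21.6 to 27.2 at day 3 and 4.53 to 5.45 at day 14. Of these 10 markers, 4 were at or above 1 FPKM in Hepatocytes and 1 at day 3. The part of these cells in the result was not tested. Itgb7 was at 1.45, 1.18 and 0.984 FPKM in Hepatocytes, 1.52, 1.45 and 1.06 in mouse-1 at P35 and at no more than 0.256 in any other cell sample. It passed the filter through samples of Hepatocytes and mouse-1 at P35 alone, so the filter bore on the direction of its calls. In mouse-1 at P35 the neutrophil list stood at 86.4 to 92.3 FPKM with 2 of its 6 genes at or above 1 FPKM, and lymphocyte markers at no more than 0.026. Itga2b, the platelet subunit, peaked at day 3 with 3.01 to 3.14 FPKM (log2 difference 1.70 ± 0.08) and passed the filter through the day 3 and day 14 samples alone, while the 5 platelet markers summed to 1.16 to 1.80 FPKM there. The highest group means of Itga4, Itga9, Itgam, Itgax, Itgad and Itgae in the cells lay between 0.00711 and 0.332 FPKM.

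Laminin chains were under 1 FPKM in Hepatocytes, and the chains of the main trimers appeared in culture at different times. Lamc1, the gamma 1 chain, stood at 0.750, 0.782 and 0.568 FPKM in Hepatocytes, 20.7, 18.7 and 20.5 at day 3 and 43.8, 42.2 and 40.9 at day 14 (3.62 ± 0.12 at day 3, adjusted p = 1.91e-22). Lama5, the alpha 5 chain, was at 0.0312, 0.0472 and 0.0239 FPKM in Hepatocytes, 8.81, 6.29 and 10.6 at day 3 and 29.7, 25.5 and 27.0 at day 14, a rise of 3.18 ± 0.15 (adjusted p = 4.07e-18) and a further 1.59 ± 0.15 (adjusted p = 3.1e-10). Lamb2, the beta 2 chain, trailed both, with 0.0628, 0.0895 and 0.0946 FPKM in Hepatocytes, 2.03, 1.84 and 1.93 at day 3 and 24.4, 24.1 and 23.1 at day 14, so that its larger step, 3.08 ± 0.12 (adjusted p = 1.21e-19), lay between day 3 and day 14. Passaged IL6-iHPCs held 28.8 to 45.4 FPKM of Lama5, 29.1 to 46.5 of Lamb2 and 27.0 to 59.5 of Lamc1.

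Lama3 was the exception among the laminins. It stood at 0.462, 0.561 and 0.573 FPKM in Hepatocytes and at no more than 0.282 in any culture sample, below the filter and so not tested. It made up 78.5% of the summed laminin alpha level of Hepatocytes, whereas Lama5 made up between 97.1% and 99.9% of it in the culture groups. In the clone-1 IL6-iHPCs, where the beta 3 chain was highest, Lama3 was at 0.0105, 0.0124 and 0.00864 FPKM. The alpha partner of that chain in hemidesmosomes was therefore at or near 0 in these samples. The highest group means of Lama1, Lama2, Lama4 and Lamc3 in the cells were 0.0178, 0.420, 0.195 and 0.186 FPKM.

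Lamb3 and Lamb1 separated the lines. Lamb3, the beta 3 chain, was at 0.701, 0.621 and 0.495 FPKM in Hepatocytes, 0.516, 0.510 and 0.486 in mouse-1 at P10 and 2.24, 2.44 and 2.68 in mouse-2 at P10, against 70.5, 78.0 and 78.3 in clone-1 and 34.0, 35.7 and 33.9 in mouse-1 at P35. Lamb1, the beta 1 chain, was at 0.0498, 0.0514 and 0.0536 FPKM in mouse-1 at P10 and at 19.3, 20.9 and 20.2 in the same line at P35, and at no more than 2.81 FPKM in any other cell sample.

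The make-up of the beta class changed with these. Of the summed laminin beta level, Lamb2 took 98.3% in mouse-1 at P10, 36.2% in clone-1 and 41.1% in mouse-1 at P35, Lamb3 took 62.7% in clone-1 and 37.2% in mouse-1 at P35, and Lamb1 took 21.7% in the latter. In clone-1 the beta chains summed to 120 FPKM, against 41.7 for the alpha chains.

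**Figure D3:**
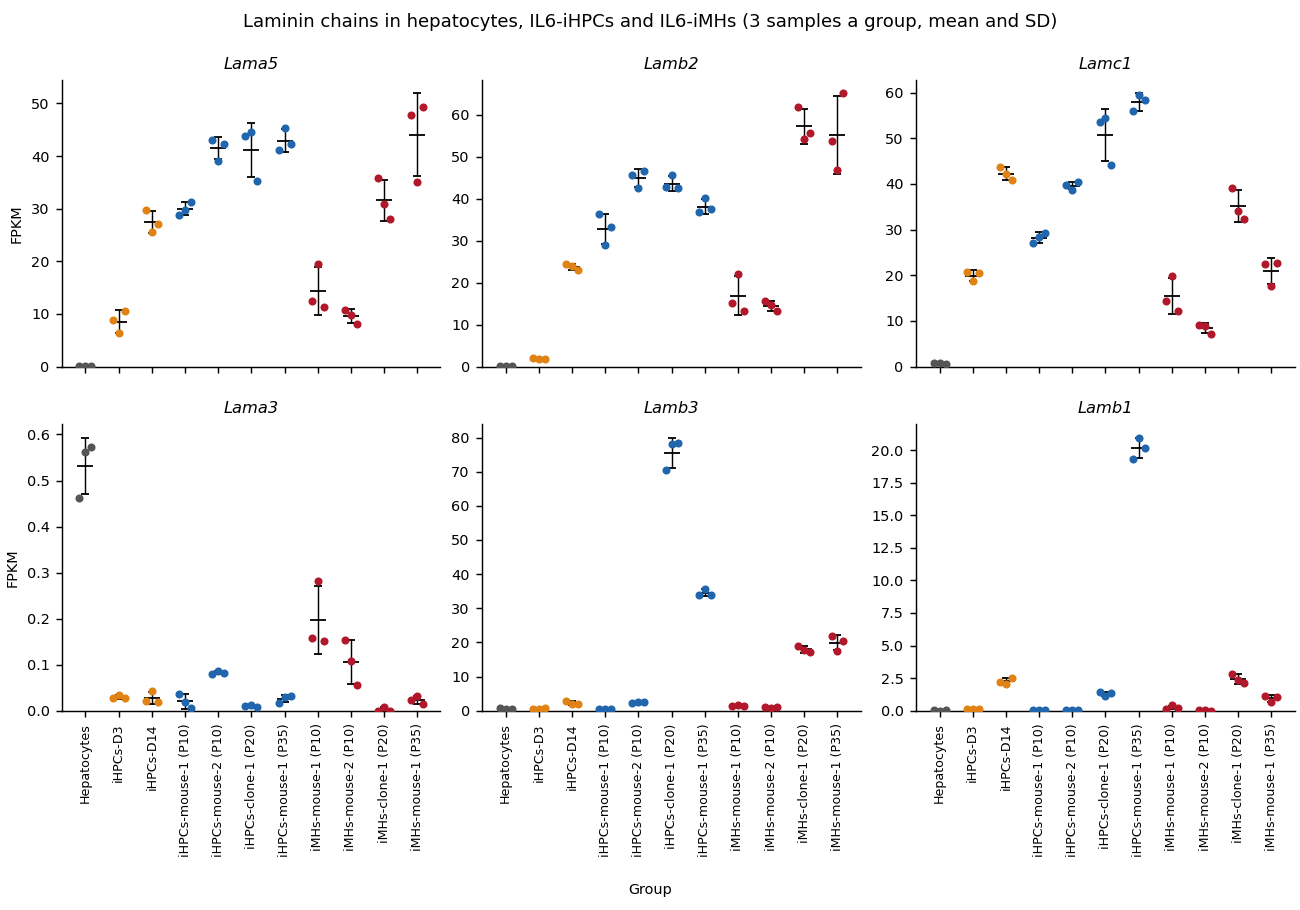
FPKM of 6 laminin chains in the 11 cell groups, with 1 point per sample and bars for the mean and SD of 3 samples, and a scale of its own in each panel. Lama5, Lamb2 and Lamc1 are present in every culture group, Lama3 does not pass 0.573 FPKM anywhere, Lamb3 peaks in clone-1 IL6-iHPCs, and Lamb1 peaks in mouse-1 (P35) IL6-iHPCs.

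Counted over the family, IL6-iHPCs-D3 had 12 of 21 tested members higher than Hepatocytes, beside 53.9% of all 12328 genes tested, and 1 lower, beside 12.1%. Most genes moved in this comparison, with a median log2 difference of 1.14 over all genes and 1.402 over the tested members, and of all called genes 81.6% were higher, or 53.6% after quantile normalization. That normalization left 6 members higher and 3 lower, beside 25.8% and 22.3% of all genes. It ended the calls of Itga10, Itga2, Itga2b, Itga5, Itga7 and Lamb2, while Itga3, Itga6, Itgav, Itgb1, Lama5 and Lamc1 were called higher under it. From day 3 to day 14 the background was small, and 7 members were higher (5.12% of all genes) and 2 lower (5.05%). The 7 were the 5 tested laminins, Lama5, Lamb1, Lamb2, Lamb3 and Lamc1, with Itga3 and Itgb4, and the 2 were Itga5 and Itga2b. Lamb3 was just over the threshold there at 1.01 and was at 0.86 without IL6-iHPCs-D14 replicate 1 and 0.91 without IL6-iHPCs-D3 replicate 2. Quantile normalization ended the calls of Lamb3 (0.91) and Itga2b (-0.92). Between day 3 and day 14 the cholangiocyte and progenitor markers (keratins and other genes of bile duct cells) went from 40.6 to 48.1 FPKM in sum to 151 to 160, with 3 and then 4 of 6 at or above 1 FPKM, and the stellate cell and fibroblast markers from 1.75 to 2.57 to 25.8 to 27.8, with 0 and then 1 of 10, and their part in the result was not tested.

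Against Hepatocytes, IL6-iHPCs-D14 had 12 members higher (50.0% of all genes) and 2 lower (12.9%), Itgb2 and Itgb7. Itgb7 was at -0.94 without Hepatocytes replicate 1 and -0.99 without IL6-iHPCs-D14 replicate 2, short of the limit. Of all called genes 79.4% were higher, or 52.8% after quantile normalization, which left 9 members higher and 2 lower, beside 25.3% and 22.6% of all genes. Taken as the mean of the 4 lines, passaged IL6-iHPCs had 14 higher (48.1%) and 1 lower (11.3%), Itgb2. Of all called genes 81.0% were higher there, or 54.5% after quantile normalization, which left 12 members higher and 2 lower, beside 22.7% and 18.9% of all genes. All 5 tested laminins were among the 14, with Lama5 at 5.25 ± 0.12 (adjusted p = 3.79e-26) and Lamb2 at 5.23 ± 0.09 (adjusted p = 2.94e-29). Against IL6-iHPCs-D14, the passaged mean had Itga1 (1.12 ± 0.07) and Lamb3 (1.78 ± 0.08) higher, beside 4.89% of all genes, and Itga3 (-1.17 ± 0.07) and Itgb4 (-1.03 ± 0.05) lower, beside 6.57%. Of all called genes 42.7% were higher, or 32.0% with limma voom on recovered reads, which called 9 members, beside 21.6% of all genes. The difference of Itgb4 was -0.86 after quantile normalization and -0.95 without IL6-iHPCs-D14 replicate 1, short of the limit. A mean over these lines hides opposite levels, since Itgb4 was below day 14 in 3 lines and above it in clone-1. Hepatocytes and both P0 groups differ from the mouse-1 and mouse-2 lines in the Y-linked genes given above. Hepatocytes (5.46 to 7.21 FPKM in sum) also differ in them from the P0 groups (70.5 to 81.4 at day 3 and 53.4 to 62.3 at day 14). The source animal thus cannot be told apart from the culture or the passage. This holds for day 3, day 14 and passaged cells against Hepatocytes, and for passaged cells against day 14.

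Between passage 10 and passage 35 of the mouse-1 line, 9 members were higher (24.8% of all genes) and none lower by limma (8.94% of all genes). Lamb3 led with 4.56 ± 0.10 (adjusted p = 4.7e-26), followed by Lamb1 with 4.33 ± 0.08 (adjusted p = 1.36e-27), Itga2 with 2.33 ± 0.12, Itga3 with 2.31 ± 0.09 and Itgb4 with 1.71 ± 0.06. The others were Itgb6, Itga6, Itgb7 and Lamc1, the last at 1.01 ± 0.12 (adjusted p = 5.15e-09) and at 0.98 without mouse-1 (P10) replicate 1. Of all called genes 73.5% were higher, or 51.4% after quantile normalization. It left 6 members higher, beside 14.3% of all genes, and added Itga1 as lower (-1.42), beside 13.6%. The cholangiocyte and progenitor markers summed to 73.2 to 80.5 FPKM at P10 and 530 to 539 at P35, with 4 of 6 at or above 1 FPKM at P35, and their part in the result was not tested.

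The clone-1 line at P20 was set against the mean of the mouse-1 and mouse-2 lines at P10. It had 7 members higher (19.7% of all genes) and Itga1 lower (6.88%). Lamb3 was at 75.6 against 1.48 FPKM (5.07 ± 0.09, adjusted p = 1.14e-28), Itgb4 at 17.6 against 0.516 (3.64 ± 0.05, adjusted p = 2.22e-30) and Itga2 at 5.20 against 0.168 (2.37 ± 0.10, adjusted p = 5.99e-19). Itgb6, Itga3, Itga6 and Lamb1 followed at 1.45 to 1.12, and Itga1 was at 4.49 against 18.7 FPKM (-1.81 ± 0.08, adjusted p = 3.09e-18). Of all called genes 74.1% were higher, or 52.1% after quantile normalization, which left 4 members higher and Itga1 lower, beside 12.3% and 11.3% of all genes. The cholangiocyte and progenitor list stood at 777 to 924 FPKM in clone-1, and its part was not tested. Passage and line differ together in this comparison and cannot be told apart.

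The laminin receptor subunit alpha 6 was lower in IL6-iMHs than in IL6-iHPCs under each of the 4 line labels. The clone-1 groups differed in the Y-linked genes (33.9 to 38.7 FPKM in IL6-iHPCs and 0 in IL6-iMHs). Differences under that label thus cannot be read as maturation of a single clone. Itga6 was at 2.40, 2.83 and 2.56 FPKM in mouse-1 (P10) IL6-iMHs against 15.9, 16.8 and 18.5 in their IL6-iHPCs, at 1.66 to 1.88 against 11.996 to 12.7 in mouse-2, at 8.92 to 9.41 against 28.9 to 36.1 in clone-1 and at 2.54 to 2.72 against 37.9 to 40.4 in mouse-1 at P35. No IL6-iMH sample overlapped with its IL6-iHPC samples. Averaged over the 4 lines Itga6 fell by 2.45 ± 0.03 on the log2 scale (adjusted p = 4.9e-31), and by 2.69 ± 0.04 on that scale without clone-1. These SEs measure the spread within groups and not that between the 4 lines, whose differences ran from -1.74 to -3.46.

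In this average 5 tested members were lower, beside 21.4% of all genes, and none higher, beside 6.68%. The other 4 were Itga1 (-1.67 ± 0.05), Itgb4 (-1.43 ± 0.03), Lamc1 (-1.23 ± 0.06) and Itga2 (-1.15 ± 0.06). Without the clone-1 line 6 were lower, beside 24.7% of all genes. Itgb1 (-1.15), Lamb1 (-1.07) and Lama5 (-1.01) then passed the 2-fold limit, while Itgb4 (-0.83) and Itga2 (-0.95) no longer did. Of all called genes 23.8% were higher, or 52.0% after quantile normalization. It left 3 members lower, Itga6, Itga1 and Itgb4, beside 8.89% of all genes. Under it, with clone-1 left out, 4 were lower, Itga6, Itga1, Itgb1 and Lamc1, beside 12% of all genes. Without clone-1 Itga1 was at -2.09 ± 0.05 and Lamc1 at -1.47 ± 0.07. The cholangiocyte and progenitor markers moved with this in 3 lines, from 777 to 924 FPKM in sum to 124 to 130 in clone-1, from 530 to 539 to 132 to 158 in mouse-1 at P35 and from 124 to 129 to 56.9 to 68.2 in mouse-2, and overlapped in mouse-1 at P10 (73.2 to 80.5 and 69.0 to 79.8), and their part in the result was not tested.

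The change differed between the lines for 21 of 21 tested members by limma's F test, beside 96.3% of all genes, so the lines were read one by one. The 3 members called in mouse-1 at P10, the 9 in mouse-2 and the 10 in mouse-1 at P35 on the lower side compared with 4 in clone-1. The background on that side was 15.4%, 28.6%, 35.1% and 17.7% of all genes. On the higher side clone-1 had Itga5 and Itgb3 (5.86% of all genes), mouse-1 at P35 had Itga7 (10.2%), and the lines at P10 had no member by limma (9.59% in mouse-1 and 11.2% in mouse-2). Itgb3 passed the filter through clone-1 IL6-iMH and day 14 samples alone, so the filter bore on the direction of its call. Itga5 differed by 1.5 in clone-1 and by 0.10 to -0.41 in the other lines, and Itga7 by 1.14 in mouse-1 at P35 and by -1.07 in mouse-2. Lamb1 differed by -3.44 in mouse-1 at P35, from 19.3 to 20.9 FPKM down to 0.658 to 1.14, and by -0.02 to 0.59 elsewhere. In mouse-1 at P35 Lamb2 was at 46.8 to 65.1 FPKM in the IL6-iMHs against 36.8 to 40.1 in the IL6-iHPCs, without overlap but short of 2-fold (0.51 ± 0.12, adjusted p = 0.000175), and Lama5 at 35.1 to 49.4 against 41.2 to 45.4 (0.02 ± 0.15). Both fell by 1.57 and 2.01 on the log2 scale in mouse-2. Lamb3 differed by -2.01 in clone-1, with 17.2 to 19.1 FPKM in its IL6-iMHs against 70.5 to 78.3 in its IL6-iHPCs. It was at 1.27 to 1.65 FPKM in mouse-1 (P10) IL6-iMHs, above the 0.486 to 0.516 of their IL6-iHPCs. That difference, 0.72 on the log2(FPKM + 1) scale, was under the limit, though the FPKM values themselves differed by more than 2-fold. Itgb4 was at or under 1.02 FPKM in every IL6-iMH sample, with 0.880 to 1.02 in clone-1 against 17.2 to 18.4 in the IL6-iHPCs of that label (-3.26 ± 0.06, adjusted p = 2.66e-27).

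**Figure D4:**
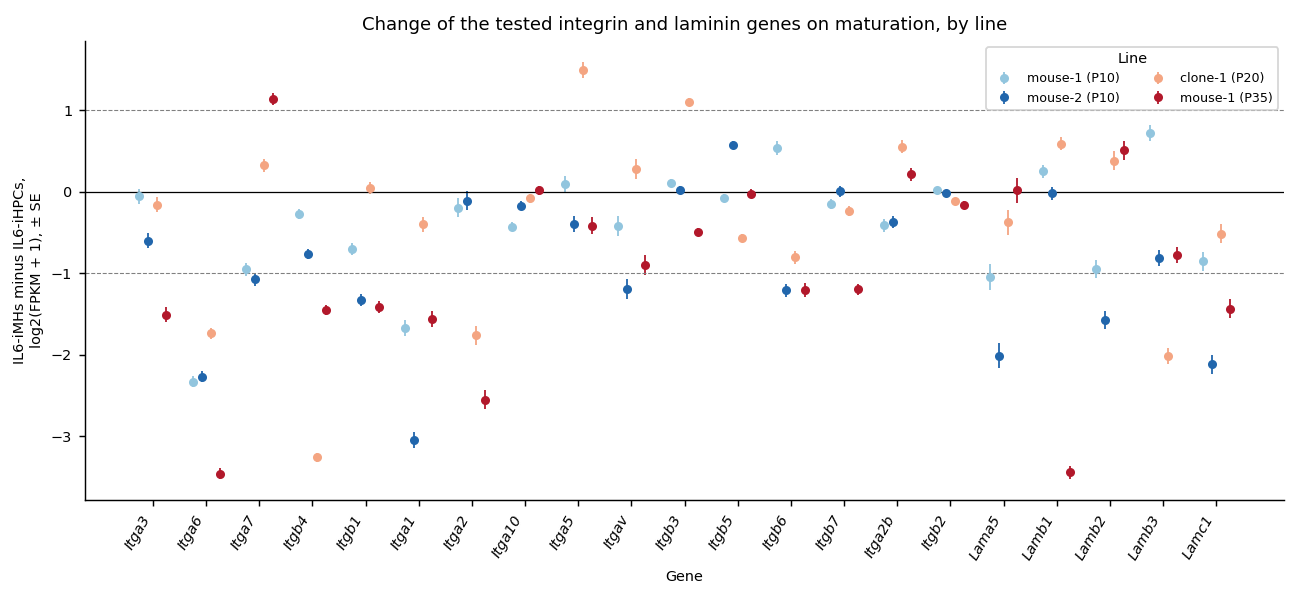
Difference of IL6-iMHs minus IL6-iHPCs in log2(FPKM + 1) with its SE for the 21 tested members, 1 point per line, and dashed lines at 2-fold. Itga6 lies below the lower dashed line in all 4 lines, while Itga7, Lamb1 and Lamb3 spread across 0.

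IL6-iMHs were not at the level of Hepatocytes. As a mean of the 4 lines they had 10 members higher (24.8% of all genes) and 2 lower (7.79%), Itgb2 and Itgb7. Without clone-1 they had 8 higher (22.2%) and 2 lower (7.34%). Lamb2 differed by 4.82 ± 0.09 (adjusted p = 4.19e-28), Lama5 by 4.40 ± 0.12 (adjusted p = 6.74e-24), Itga3 by 3.85 ± 0.07 (adjusted p = 3.99e-28), Lamc1 by 3.45 ± 0.09 (adjusted p = 3.36e-24) and Itgav by 2.91 ± 0.10 (adjusted p = 7.46e-22). Of all called genes 76.1% were higher, or 54.0% after quantile normalization. It left 7 members higher and 2 lower, beside 12.8% and 10.9% of all genes, or 6 and 2 without clone-1, beside 11.7% and 9.8%. Without clone-1 Lamb2 differed by 4.51 ± 0.10, Lama5 by 4.21 ± 0.13, Itga3 by 3.56 ± 0.08, Lamc1 by 3.13 ± 0.10 and Itgav by 2.72 ± 0.09, and the differences of Itga5 and Itgb1 were 0.86 each, under the limit. In single samples Itga3 was at 15.0 to 57.3 FPKM in IL6-iMHs against 0.969 to 1.15 in Hepatocytes, Lamb2 at 13.2 to 65.1 against 0.0628 to 0.0946 and Itgav at 7.48 to 21.6 against 0.878 to 0.956, with no overlap for any of them. Itga6 came closest to Hepatocytes in mouse-2, with 1.66 to 1.88 FPKM against 0.125 to 0.160. The Y-linked genes were at 0 in every IL6-iMH group and at 5.46 to 7.21 FPKM in Hepatocytes. The source animal and the culture thus cannot be told apart in this comparison.

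The genes that work with these receptors were read from 3 lists. Of the integrin adhesion complex, the talins, kindlins, vinculin, filamin and other proteins that link integrins to actin, 21 of 24 genes were tested. There 14 rose and none fell at day 3 by limma, 18 rose at day 14 against Hepatocytes and 17 in passaged IL6-iHPCs, beside 53.9%, 50.0% and 48.1% of all genes. After quantile normalization these were 13, 16 and 14, beside 25.8%, 25.3% and 22.7%. In maturation 8 fell, beside 21.4%, and none rose by limma. Without clone-1 9 of 20 fell, beside 24.7%, and after quantile normalization 6 of 21, beside 8.89%. Flna, an actin crosslinker, was at 0.721 FPKM in Hepatocytes, 178 at day 3, 172 as the mean of passaged IL6-iHPCs and 33.4 as the mean of IL6-iMHs (-2.37 ± 0.05 on maturation, or -2.85 ± 0.06 without clone-1). Of 9 tested hemidesmosome and laminin receptor partners, 7 rose at day 3, among them Dst (58.3 against 1.34 FPKM) and Plec (80.7 against 3.91), which tie integrins to intermediate filaments, and 2, Dst and Plec, fell in maturation (-2.04 ± 0.06 and -1.62 ± 0.07, or -2.46 and -1.91 without clone-1). The count of 7 was the same after quantile normalization. Of 18 tested genes for other matrix ligands, 10 rose and 1 fell at day 3, with the same counts after quantile normalization. The share of 10 in 18 was near that of all genes before that normalization. Nid1, a basement membrane linker of laminin, rose from 0.195 to 255 FPKM, and Vtn, the alpha V ligand vitronectin secreted by hepatocytes, fell from 2202 to 72.1.

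In liver tissue after partial hepatectomy few of the 22 tested members were called, between 0 and 5 at each time. A lower level in bulk tissue cannot tell fewer cells of a type from less RNA per cell. At 6 h Itgb5 was at 4.59, 6.29 and 3.88 FPKM against 16.7, 17.6 and 21.3 in Normal liver, with no overlap, and fell by 1.73 ± 0.13 on the log2 scale (adjusted p = 4.64e-07). It was the 1 member lower at 6 h, beside 11.5% of all 11114 genes tested. Its samples were at 12.5 to 14.9 FPKM at 24 h, still below every Normal liver sample, and at 20.8 to 25.8 from day 3 to day 14.

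Lamb3, the laminin beta 3 chain, moved the opposite way. It stood at 0.722, 0.594 and 0.719 FPKM in Normal liver, 5.67, 4.06 and 4.14 at 6 h and 3.09, 2.36 and 4.54 at 24 h, without overlap, and rose by 1.73 ± 0.18 (adjusted p = 4.98e-06) and 1.34 ± 0.18 (adjusted p = 0.000124). At day 7 it was at 0.512 to 0.709. Itgb3, the beta 3 subunit for vitronectin and fibrinogen, was at 0.598, 0.610 and 0.483 FPKM in Normal liver and 2.81, 2.20 and 2.81 at 6 h (1.20 ± 0.29, adjusted p = 0.00285). These were the 2 members higher at 6 h, beside 4.78% of all genes, and Lamb3 the 1 at 24 h, beside 3.74%. No member was called lower by limma at 24 h, beside 4.16%. Of genes called at 6 h 29.3% were higher, or 52.9% after quantile normalization, with the same count of members, beside 6.82% of all genes higher and 6.06% lower. Neutrophil markers summed to 43.4 to 44.9 FPKM at 6 h against 2.06 to 7.56 in Normal liver, and their part was not tested.

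At day 3 Lamc1 was at 3.95, 9.10 and 4.35 FPKM against 2.00, 1.27 and 1.37 (1.35 ± 0.25, adjusted p = 0.00161) and Itgb3 at 1.32, 4.64 and 1.45 (1.02 ± 0.29, adjusted p = 0.0164), the 2 members higher beside 3.33% of all genes, with none lower by limma beside 2.49%. PHX-D3 replicate 2 stood apart, with Itga3 at 7.02 FPKM against 1.52 and 1.75 in the other samples, Itgam at 7.00 against 0.345 and 0.458, Itgb2 at 10.7 against 2.15 and 2.67, and platelet markers at 32.8. Without it Itgb3 was at 0.61, under the limit, Lamc1 at 1.03 ± 0.21 (adjusted p = 0.00349) and Itga5 at 1.05 ± 0.26 (adjusted p = 0.00879), the 2 members then called, beside 2.86% of all genes higher. Between 1 and 4 members were called when other samples were left out, with 1 without Normal liver replicate 3, and 4 without PHX-D3 replicate 1 or replicate 3.

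At day 7 the white blood cell integrins led. Itgal, the alpha L subunit, was at 15.6, 13.1 and 11.6 FPKM against 1.37, 1.84 and 2.03 (2.39 ± 0.15, adjusted p = 2.95e-08), Itgb2, its beta 2 partner, at 17.1, 16.0 and 13.3 against 1.54, 1.61 and 2.25 (2.56 ± 0.34, adjusted p = 3.78e-05) and Itgb7 at 5.10, 5.10 and 5.24 against 0.522, 0.387 and 0.442 (2.08 ± 0.13, adjusted p = 1.75e-08). Itgb7 passed the filter through day 3 and day 7 samples alone, so the filter bore on the direction of its call. Itga9 (1.05 ± 0.15) and Lamc1 (1.14 ± 0.25) made up the rest of the 5 members higher, beside 7.81% of all genes, with none lower by limma (1.03% of all genes). Beside them the lymphocyte markers summed to 42.5 to 46.7 FPKM at day 7 against 2.00 to 3.41 in Normal liver, with 6 of 7 at or above 1 FPKM, the Kupffer cell and macrophage markers to 1090 to 1581 against 180 to 304, and the neutrophil markers to 63.3 to 127. Also higher were sinusoidal and vascular endothelial cell markers (174 to 268 against 138 to 147) and stellate cell and fibroblast markers (144 to 224 against 92.4 to 118). Hepatocyte markers were lower (39577 to 45953 against 52930 to 57844). The part of these cells was not tested. Of called genes 88.4% were higher, or 72.4% after quantile normalization, which left Itgal, Itgb2 and Itgb7, beside 5.22% of all genes higher. Without PHX-D7 replicate 1 Itga9 was at 0.87. At day 14 Itgal was back at 1.29 to 1.98 FPKM and no member was called by limma (2.98% of all genes, 0.981% higher and 2.00% lower), with 5 members at an unadjusted p under 0.05 and none called by limma voom on recovered reads. Of genes called at day 14, 32.9% were higher, or 47.6% after quantile normalization.

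Partner genes of the liver were read from the same 3 lists. At 6 h, of 9 tested hemidesmosome and laminin receptor partners, 3 rose (4.78% of all genes) and none fell by limma (11.5%), among them Dst at 9.67 against 2.58 FPKM (1.58 ± 0.14, adjusted p = 1.4e-06) and Sdc1, a syndecan that binds matrix, at 266 against 81.1. Of 16 tested genes for other matrix ligands 6 rose and 1 fell at 6 h. At day 3 7 rose (3.33% of all genes) and none fell by limma (2.49%), and 3 rose without PHX-D3 replicate 2 (2.86%). Fn1, the fibronectin bound by alpha 5 beta 1, was at 350 against 102 FPKM at day 3 (1.73 ± 0.24, adjusted p = 0.000226), or 1.46 ± 0.21 without that sample (adjusted p = 0.000256). At day 7 Icam1 and Vcam1, ligands of beta 2 and alpha 4 integrins, were at 16.6 against 4.15 FPKM (1.78 ± 0.22, adjusted p = 1.87e-05) and 8.61 against 2.47 (1.48 ± 0.39, adjusted p = 0.00986). Fermt3, the kindlin of blood cells, was at 11.1 against 2.25 (1.90 ± 0.27, adjusted p = 8.34e-05).

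**Figure D5:**
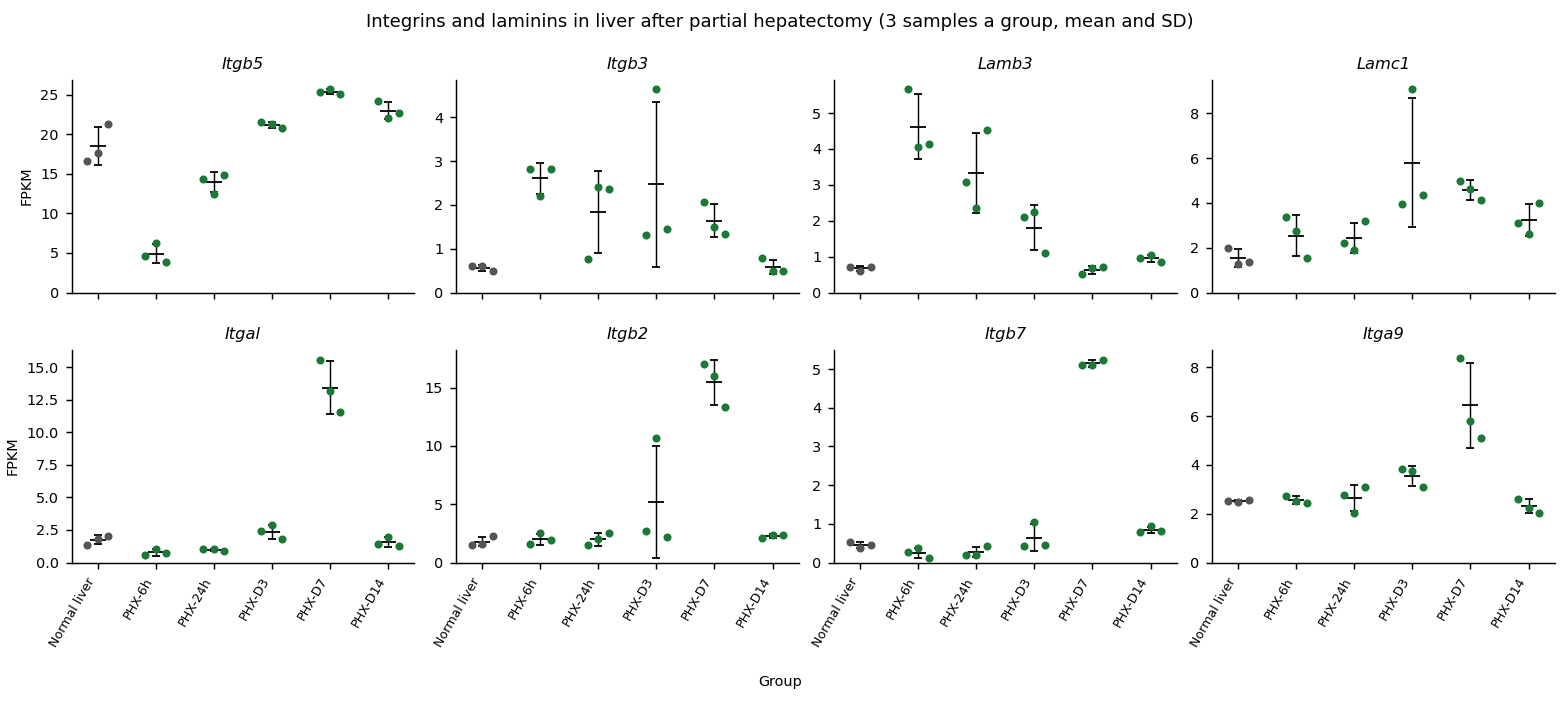
FPKM of 8 members in Normal liver and at 5 times after partial hepatectomy, with 1 point per sample and bars for the mean and SD of 3 samples. Itgb5 dips at 6 h, Lamb3 and Itgb3 are highest early, and Itgal, Itgb2, Itgb7 and Itga9 peak at day 7.

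Other members passed the adjusted p but not the 2-fold limit. That limit applies to FPKM + 1, so genes near or under 1 FPKM can differ by more than 2-fold in FPKM and still miss it. Itga1, the collagen receptor subunit, was at 2.22, 1.90 and 1.78 FPKM in Normal liver, 3.39, 3.52 and 4.17 at 24 h (0.66 ± 0.14, adjusted p = 0.00222) and 3.54, 3.62 and 5.15 at day 3 (0.77 ± 0.14, adjusted p = 0.00117, or 0.84 without PHX-D3 replicate 2). Itga6 was at 0.410, 0.276 and 0.325 FPKM in Normal liver and 1.47, 1.39 and 1.13 at day 7 (0.80 ± 0.13, adjusted p = 0.000337). Itga8, the alpha 8 subunit, was at 1.42, 0.988 and 1.04 FPKM in Normal liver and 0.394, 0.344 and 0.282 at 6 h (-0.68 ± 0.15, adjusted p = 0.00172). None of these ranges overlapped with Normal liver. Itga5 was at 6.47, 3.13 and 5.59 FPKM in Normal liver and 11.5, 6.94 and 10.8 at day 3 (0.85 ± 0.25, adjusted p = 0.0217, with the value without replicate 2 given above), and Lama3 was at 1.10, 0.542 and 0.967 FPKM in Normal liver and 0.368, 0.0474 and 0.0834 at 24 h (-0.68 ± 0.24, adjusted p = 0.042), both also without overlap. Itgam, the alpha M subunit, was at 0.111 to 0.211 FPKM in Normal liver and 1.06 to 1.36 at day 7, without overlap, which did not pass the test (0.94, adjusted p = 0.126). That test used the spread over all liver groups, which PHX-D3 replicate 2 widened (7.00 FPKM against 0.345 and 0.458). It thus does not show that Itgam was unchanged. Itgax was at 0.829 to 1.29 at day 7 and was not tested. Itga6 passed the filter through day 3 and day 7 samples alone, Itga8 through Normal liver and day 7, and Lama3 through Normal liver and day 3. The filter thus bore on the direction of their differences.

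Of the members that differed between Hepatocytes and cultures, several were at low levels in liver and Itgb1 was not. Itgb1 was between 29.0 and 65.6 FPKM in every liver sample, Itga6 between 0.180 and 1.47, and Itga3 between 1.18 and 2.81 outside PHX-D3 replicate 2. Lama5 did not exceed 0.957 FPKM, Itgb4 0.197 and Itgb6 0.0370 in any liver sample. The highest group means in liver of the other untested members were 0.566 FPKM for Itga2, 0.526 for Itga10, 0.0576 for Itga11, 0.756 for Itga4, 0.0420 for Itgad, 0.165 for Itgae, 0.0707 for Itgb8, 0.217 for Lama2, 0.725 for Lama4 and 0.377 for Lamc3. Itgav was at 2.35, 3.28 and 2.68 FPKM in Normal liver and 4.48, 4.56 and 7.70 at 24 h, without overlap but not called. Group means in liver ran from 1.48 to 2.52 FPKM for Itga7, 0.624 to 1.48 for Itga2b and 0.299 to 0.966 for Lama1. They ran from 1.01 to 1.86 for Lamb1 and 0.595 to 1.61 for Lamb2, and none of these was called. The 2 tables were normalized apart, so their levels were not tested against each other. Of the tested members, Itga1, Itga10, Itga7, Itga8, Itgam, Itgav, Itgb4 and Lama3 share exonic bases with another annotated gene in GENCODE, between 9 bases for Itga7 and 3450 for Itgam, and whether reads were counted by strand was not given in the sources used here, so these reads cannot be told apart.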

How the data were processed

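Poly-T selected mRNA of cultured cells and livers was sequenced on an Illumina platform with paired 150-base reads. The submitters' processing notes name TopHat 1.4.1, Cufflinks 1.3.0 and the mouse build mm10, and the authors deposited FPKM values (fragments per kilobase of transcript and per library size) per gene and sample, 33 cell samples and 18 liver samples in 1 table each. A further deposited table of FPKM values for 9 samples at day 7, with 480 symbols and 1 row that was cut off, held 1 member, Itga5. It was left out of the comparisons. Samples were grouped by GEO's labels, with 3 a group.

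Values were analysed in Python 3.11.15 and R 4.3.3 with limma 3.58.1, as log2(FPKM + 1) with a mean-variance trend, all groups of a table in 1 fit, and Benjamini-Hochberg adjustment over all genes that reached 1 FPKM in 3 or more samples. Means over lines weighted the lines equally. A call required an adjusted p under 0.05 and a 2-fold change. FPKM is normalized to the reads of each library, so values are shares, and a broad rise of other genes lowers the rest. FPKM values were whole multiples of 1 read within 0.02 of a read for 18830 of 18830 genes above 0 in the cell table and 17331 of 17331 in the liver table, which gave the depth, 49299093 to 88877761 and 52073586 to 79266297 reads per sample. The recovered reads were tested with limma voom as an alternative, beside a pseudocount of 0.1, no filter, a filter of 5 FPKM, other fold limits, quantile normalization, a replicate block, the clone-1 line left out, and each sample left out. On simulated data, the test recovered 100% of 200 changed genes for IL6-iHPCs-D3 against Hepatocytes (10909 genes) and 96% for PHX-6h against Normal liver (10667 genes), with 1 and 5 wrong calls. The simulated sets were smaller than the 12328 and 11114 genes tested in the data, so these shares describe the simulation only.

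Of the genes matched by the rule, 1 is not reported here. The others were accounted for, by role, and from each list of partner genes at most the 2 largest rises and 2 largest falls of a comparison were named. The members and lists were chosen with earlier results of these data known. Gene positions came from GENCODE M21 (GRCm38) and promoters from RefSeq GRCm38.p6.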

Additional observations from a re-analysis of the deposited data

Results flagged for a closer look

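The change from IL6-iHPCs to IL6-iMHs differed between the 4 lines for all 21 tested members by limma's F test of the difference (adjusted p under 0.05). The same test called 96.3% of all 12328 genes, and all 20 members tested without the clone-1 line passed. The gap between the highest and the lowest of the 4 log2 differences was widest for the laminins Lamb1 (4.03), Lamb3 (2.73), Lamb2 (2.08) and Lama5 (2.04) and the integrins Itgb4 (2.99), Itga1 (2.65), Itga2 (2.44) and Itga7 (2.22). It was 1.91 for Itga5, 1.75 for Itgb6, 1.72 for Itga6, 1.61 for Itgb3, 1.60 for Lamc1, 1.47 for Itgav, 1.46 for Itga3 and Itgb1, 1.20 for Itgb7 and 1.14 for Itgb5. It was below 1 for Itga2b (0.97), Itga10 (0.45) and Itgb2 (0.18).

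In the day-7 table, which no comparison used, Itga5 had a mean of 11.41 ± 0.23 FPKM in IL6-iHPCs-D7 and 12.07 ± 0.65 in HCM-Hepa-D7, hepatocytes cultured for the same time in the medium without IL6, both above the 6.64 ± 0.35 of its primary hepatocytes (SD, n = 3 each). Samples ranged from 11.3 to 11.7, from 11.5 to 12.8 and from 6.23 to 6.85 FPKM, so the culture groups overlapped with each other and not with the primary hepatocytes.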

How the results depend on the processing

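Counts of partner genes after quantile normalization, without clone-1 and without PHX-D3 replicate 2 were chosen after seeing the data. With a 4-fold limit in place of 2-fold, the number of members called was 6 for day 3 against Hepatocytes, 2 for day 14 against day 3, 8 for day 14 and 8 for passaged IL6-iHPCs against Hepatocytes, 0 for passaged IL6-iHPCs against day 14, 4 for P35 against P10, 3 for clone-1 against the P10 lines, 1 for IL6-iMHs against IL6-iHPCs, 6 for IL6-iMHs against Hepatocytes, 0 for PHX-6h, PHX-24h and PHX-D3, and 3 for PHX-D7. With no fold limit it was 20 for day 3 against Hepatocytes, 18 for day 14 against day 3, 17 for passaged IL6-iHPCs against day 14, 19 for P35 against P10, 18 for clone-1, 19 for IL6-iMHs against IL6-iHPCs, 20 for IL6-iMHs against Hepatocytes, 6 for PHX-6h, 9 for PHX-24h, 10 for PHX-D3 and 11 for PHX-D7. A 1.5-fold limit gave 7 for passaged IL6-iHPCs against day 14, 10 for maturation, 5 for PHX-6h and 6 each for PHX-24h and PHX-D3. A pseudocount of 0.1 gave 7 for passaged IL6-iHPCs against day 14, 14 for P35 against P10, 6 for PHX-6h, 4 for PHX-24h, 7 for PHX-D3, 9 for PHX-D7 and 1 for PHX-D14. Voom on recovered reads gave 9 for passaged IL6-iHPCs against day 14, 14 for P35 against P10, 13 for clone-1, 5 for PHX-6h, 3 for PHX-24h and 6 for PHX-D3. The share of all genes called moved too, for P35 against P10 from 33.7% to 42.7% with that pseudocount and 44.9% with voom. A filter of 5 FPKM, which tests fewer genes, gave 1 for PHX-6h and 0 for PHX-24h and PHX-D3. Quantile normalization gave 5 for clone-1, 3 for maturation, 1 for PHX-D3 and 3 for PHX-D7. It reversed 1 value, Itga7 at day 14 against Hepatocytes, from 1.18 to -0.19, and the cause was not tested. Of the 299 member values tested, 267 stayed on their side of the threshold under quantile normalization, 27 lost their call and 4 gained one, and of 993 values of called members with a single sample left out 969 stayed, 12 lost their call and 12, those of Itgb2 without 1 of the Hepatocytes samples, could not be tested since it then failed the filter. The values of Itgb7 in P35 against P10 (0.99 without P35 replicate 1), Itgb4 in passaged IL6-iHPCs against day 14 (-0.95 without day 14 replicate 1) and Itga5 in IL6-iMHs against Hepatocytes (0.91 without Hepatocytes replicate 3) were among these. With single samples left out, counts ranged from 12 to 13 for day 3 against Hepatocytes, 8 to 9 for day 14 against day 3, 13 to 15 for day 14 and 14 to 15 for passaged IL6-iHPCs against Hepatocytes, 8 to 11 for P35 against P10, 10 to 12 for IL6-iMHs against Hepatocytes, 1 to 2 for PHX-24h (2 without PHX-24h replicate 1), 1 to 4 for PHX-D3 and 4 to 5 for PHX-D7. Samples with the same replicate number did not deviate together (mean correlation -0.015 over 165 pairs of the cell table and -0.0302 over 45 of the liver table), and the replicate block changed no count, with 13 for day 3 against Hepatocytes with the block as without the pairing.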
